A study of Mus musculus with 16 samples.

Results

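The loss of p53 in mouse embryonic stem cells (ESCs) was examined through 6 ATAC-seq peak lists, of 16 in the series. Of these, 4 come from p53 knockout ESCs, with replicates 1 and 2 of each of the clones C9 and H9, and 2 come from the parental line, replicates 1 and 2. All 6 are ESCs with a GFP reporter knocked in at Rx (Rax, an eye field gene), kept in 2i+LIF, a medium that holds ESCs in the naive state. C9 and H9 are each a single clone, so the p53 knockout rests on 2 clones, and nothing in the labels places the replicates in separate cultures, so every p-value below measures the spread between these lists only. The other 10 lists are used only as lists that took no part in choosing regions. Of these, 6 come from ESCs lacking both Wdr5 and p53. A pair of those lists is from cells with the backbone plasmid alone, a pair from cells given back WDR5 in its wild-type form (named WDR5WT) and a pair from cells with the mutant S91K-Y191F. The remaining 4 come from embryoid bodies, 2 parental at day 4 and 2 double knockout with no day in their label. Peaks of the 6 lists on chromosomes 1 to 19, X and Y that overlapped by at least 1 bp were merged into 47292 regions. A region was called p53-knockout-only when all 4 knockout lists and no parental list held it, and parental-only when both parental lists and no knockout list did.

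p53, encoded by Trp53, is a transcription factor that binds DNA as a tetramer, at a site built from a pair of decamer half-sites. After DNA damage and other stress it activates genes for cell cycle arrest, apoptosis, repair and metabolism, and it induces its own inhibitor Mdm2. In mouse ESCs p53 is also known for opposing self-renewal, and clones without it are known to tolerate damage that parental cells do not. ATAC-seq inserts adapters into DNA that is free of nucleosomes, so its peaks mark active promoters and enhancers. A peak call on a cell population does not tell how many cells have the site open from how open it is in each cell.

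A few promoters carry the contrast and are printed here from RefSeq (GRCm38.p6), 250 bases before to 50 after a gene start, 5′ to 3′ on the strand of the gene. Sorcs1 (chr19:50678597-50678896, minus strand) had the strongest p53-knockout-only peak of all. Phlda3 (chr1:135765835-135766134, plus strand) and Dram1 (chr10:88357026-88357325, minus strand) are the p53 targets whose start was open in every knockout list and in neither parental list. Gm13272 (chr4:88779600-88779899, plus strand) shows the kind of promoter found only in the parental lists, one with near-identical copies elsewhere. In these 4 sequences capitals mark CG dinucleotides.
Sorcs1: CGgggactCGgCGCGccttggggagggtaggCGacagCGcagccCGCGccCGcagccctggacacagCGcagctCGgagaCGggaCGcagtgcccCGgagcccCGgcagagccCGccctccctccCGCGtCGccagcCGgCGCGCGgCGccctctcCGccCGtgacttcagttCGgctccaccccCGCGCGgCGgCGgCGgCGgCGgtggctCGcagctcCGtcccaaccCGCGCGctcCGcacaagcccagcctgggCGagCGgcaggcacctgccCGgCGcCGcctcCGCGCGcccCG
Phlda3: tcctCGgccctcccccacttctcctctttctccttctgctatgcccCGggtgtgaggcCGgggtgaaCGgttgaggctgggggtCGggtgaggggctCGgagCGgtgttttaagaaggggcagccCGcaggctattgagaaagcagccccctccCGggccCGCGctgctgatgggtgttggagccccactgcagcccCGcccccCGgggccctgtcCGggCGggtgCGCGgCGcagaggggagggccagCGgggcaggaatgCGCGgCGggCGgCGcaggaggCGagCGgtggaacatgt
Dram1: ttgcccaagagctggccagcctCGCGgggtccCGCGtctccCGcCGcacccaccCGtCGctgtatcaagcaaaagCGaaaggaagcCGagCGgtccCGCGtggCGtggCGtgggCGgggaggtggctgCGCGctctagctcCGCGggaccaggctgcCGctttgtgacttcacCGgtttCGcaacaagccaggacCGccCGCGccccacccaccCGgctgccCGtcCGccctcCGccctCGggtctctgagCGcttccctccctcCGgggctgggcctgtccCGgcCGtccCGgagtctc
Gm13272: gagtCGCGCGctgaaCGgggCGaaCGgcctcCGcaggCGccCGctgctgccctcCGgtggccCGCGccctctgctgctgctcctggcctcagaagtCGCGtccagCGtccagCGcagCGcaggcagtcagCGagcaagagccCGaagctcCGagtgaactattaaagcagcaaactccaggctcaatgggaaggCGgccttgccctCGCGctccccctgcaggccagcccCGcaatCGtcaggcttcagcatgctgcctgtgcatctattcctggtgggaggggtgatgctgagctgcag

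Bax (chr7:45466849-45467148, minus strand) is the p53 target with a start peak in parental replicate 1 and in no knockout list. Cdkn1a (chr17:29090729-29091028, plus strand, the upstream of its 2 listed starts) is the p53 target whose promoter letters hold a full p53 site. Capitals here mark matches to the p53 half-site consensus.
Bax: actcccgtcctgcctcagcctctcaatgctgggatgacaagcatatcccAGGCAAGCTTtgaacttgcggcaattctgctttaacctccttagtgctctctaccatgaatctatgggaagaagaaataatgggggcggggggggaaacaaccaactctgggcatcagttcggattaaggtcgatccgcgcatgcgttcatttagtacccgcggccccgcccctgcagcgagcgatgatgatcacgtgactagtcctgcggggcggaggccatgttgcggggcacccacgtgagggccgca
Cdkn1a: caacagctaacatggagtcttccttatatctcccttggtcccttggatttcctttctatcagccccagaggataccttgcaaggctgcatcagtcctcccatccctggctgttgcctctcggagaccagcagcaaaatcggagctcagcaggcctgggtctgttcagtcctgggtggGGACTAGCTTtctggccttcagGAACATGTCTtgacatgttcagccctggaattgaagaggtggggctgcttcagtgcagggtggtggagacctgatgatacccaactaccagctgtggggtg

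The lists hold peak calls with a signal value but no read counts, so the depth of each library is unknown. The parental lists differed most between replicates, at 24367 and 5330 peaks. Parental replicate 2 therefore limits how many regions can be present in both parental lists. Absence from both rests mostly on parental replicate 1. Without replicate 2, 5631 regions were p53-knockout-only, and without replicate 1, 16220 were. The 6 lists also differ in kind: on chromosomes 1 to 19, X and Y the widest peak spanned 27707 and 27767 bp in the parental lists and 7727 to 15921 bp in the knockout lists. Backbone and S91K-Y191F lists, of cells that lack p53, had widest peaks of 18810 to 29214 bp, above every knockout list. Among them, S91K-Y191F replicate 2 (18810 bp) and backbone replicate 2 (19984 bp) lay nearer to the largest knockout value than to the parental ones. WDR5WT lists resemble the knockout ones (7737 and 15914 bp). Across the comparison of parental with p53 knockout ESCs, kind of list and p53 genotype cannot be told apart. The labels name no batch.

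The knockout lists were longer and held a smaller share of their peaks in dense windows than the parental lists. Clone C9 lists held 26305 and 31782 peaks and clone H9 lists 30780 and 31130. All 4 exceeded both parental lists, and the difference in log10 peak number was 0.42 (knockout minus parental, 4 lists against 2), or 0.089 without parental replicate 2. Dense windows, the 124 windows of 100 kb in which at least 1 of the 12 ESC lists has 10 or more peaks, held 3.14% and 2.79% of C9 peaks, 2.89% and 2.84% of H9 peaks, and 4.88% and 16.5% of parental peaks. The difference was -7.75 percentage points, and -1.96 without parental replicate 2. Median peak width was 621 and 631 bp in C9, 634 and 651.5 bp in H9, and 595 and 587.5 bp in parental lists, a difference of 43.1 bp. Peaks within 1000 bp of a protein-coding gene start made up 35.7% and 30.4% of C9 lists, 34.3% and 34.3% of H9 lists, and 36.6% and 46.1% of parental lists.

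The knockout and parental values of these 4 measures did not overlap. In a two-sided exact permutation test, 4 lists against 2 cannot give p below 0.0667, and the measures reached that value, 0.0889 after Benjamini-Hochberg adjustment over 8 measures. None therefore passed a threshold of 0.05. The share at gene starts changed direction with list length. With every list reduced to its 5330 peaks of highest signal, it was 16.3 percentage points higher in the knockout lists (p = 0.0667, exact permutation test), whereas over whole lists the difference was -7.60 points.

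**Figure D1:**
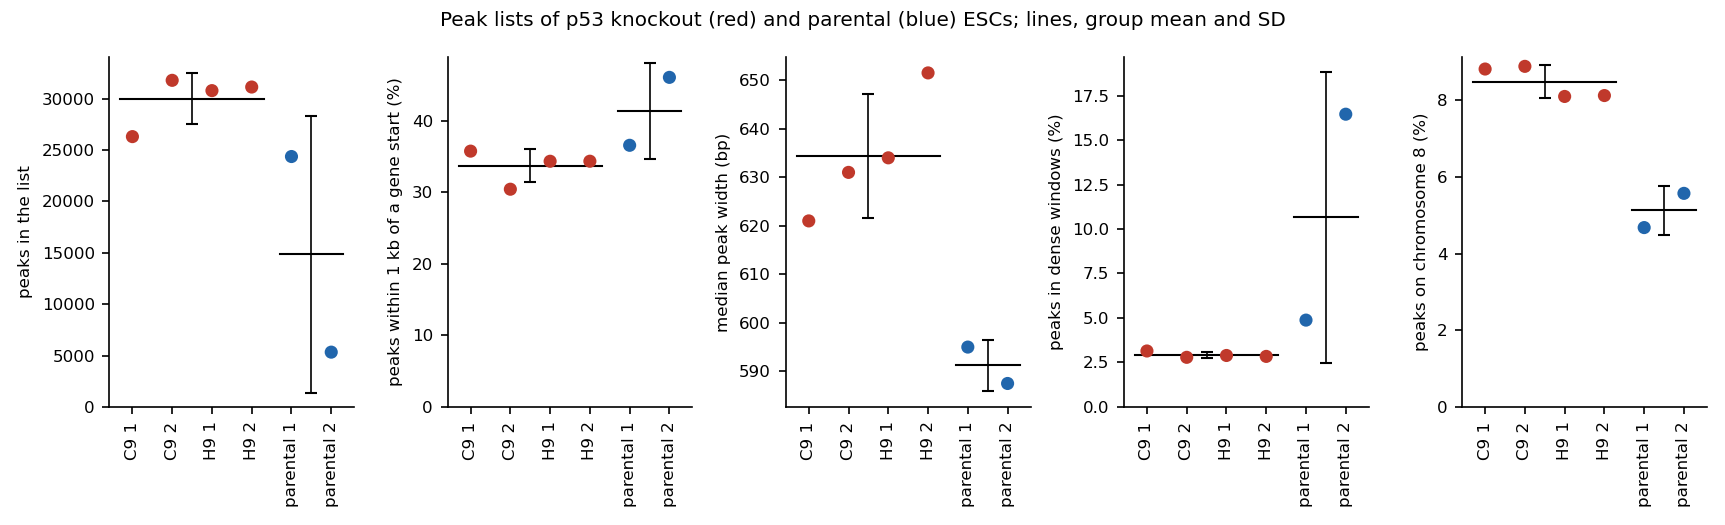
Values of each of the 6 lists (x axis, clone and replicate) for peak number, share of peaks within 1 kb of a gene start, median peak width, share of peaks in dense windows and share of peaks on chromosome 8 (y axes; width does not start at 0). Points are lists, red p53 knockout and blue parental, and lines give the group mean with its SD; the parental SD is wide because replicate 2 has 5330 peaks and replicate 1 has 24367.

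Over whole lists, 5620 regions were p53-knockout-only, 11.9% of the 47292, and 1152 were parental-only, 2.44%. A further 3372 regions were in all 6 lists, and 10598 were in all 4 knockout lists and 1 parental list. The directions do not compare directly, since one asks for 4 lists and the other for 2, and since 1 parental list is short. With the 5330 strongest peaks of each list the counts came level, at 918 p53-knockout-only regions (8.9% of 10311) and 1019 parental-only regions (9.88%). With parental replicate 2 left out and 24367 peaks in each remaining list, 3759 regions (9.53% of 39458) were p53-knockout-only and 6481 (16.4%) were in parental replicate 1 alone. Leaving out parental replicate 1 instead of replicate 2 raised the whole-list count of p53-knockout-only regions to 16220, and leaving out replicate 2 raised that of parental-only regions to 5483. Which direction holds more regions thus follows from list length and from the parental list used, and no direction is read from these counts.

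Both clones gave the same order over whole lists. C9 alone against the parental lists gave 8021 knockout-only regions (19.2% of 41790) and 1196 parental-only ones (2.86%), and H9 alone gave 9457 (22.4% of 42268) and 1198 (2.83%). These comparisons share the parental lists and are not independent. Between the clones, C9 replicate 2 shared 77.8% of its regions with H9 replicate 1 and 78.3% with H9 replicate 2. Within a clone, C9 replicate 2 shared 72.1% of its regions with C9 replicate 1, the shortest knockout list, which is less than with either H9 list. H9 replicate 1 shared 83.4% of its regions with H9 replicate 2. C9 replicate 1 shared 87.8% of its regions with C9 replicate 2, 86.3% with H9 replicate 1 and 60.0% with parental replicate 1.

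**Figure D2:**
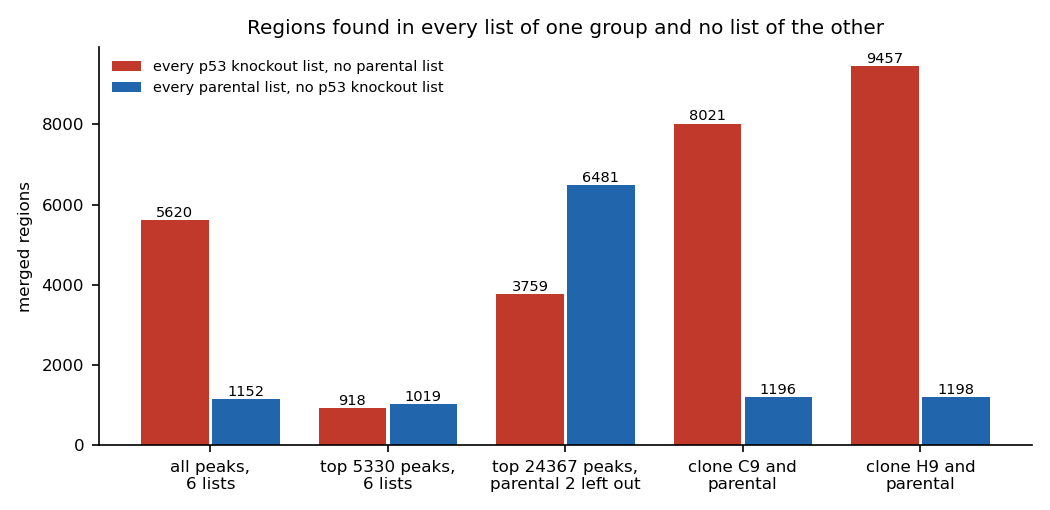
Number of merged regions (y axis) found in every p53 knockout list and no parental list (red) or in every parental list and no p53 knockout list (blue), for whole lists, 2 settings of equal list length and each clone alone (x axis). The red bar is the taller over whole lists (5620 against 1152), the bars are near level at 5330 peaks (918 against 1019), and the blue bar is the taller without parental replicate 2 (3759 against 6481).

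Regions found only in the knockout lists lay at gene starts in a minority of cases. Of the 5620, 18.3% lay within 1000 bp of a gene start, against 25.6% of all merged regions and 68.3% of the regions in all 6 lists. Another 37.1% lay over 100 kb from any start, against 29.0% of all regions and 10.7% of those in all 6 lists. Their median width was 769 bp, against 697 bp over all regions. Among the 918 p53-knockout-only regions at equal list length the share at starts was 55.3%, against 47.4% of all regions, so this feature too depends on how deep the lists are read.

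Few of the strongest knockout peaks were absent from the parental lists. Of the 5333 regions with a peak in the top 25% of all 4 knockout lists by signal, 128 (2.4%) were p53-knockout-only. Of these 128, 27 lay at gene starts, 8 in dense windows and 44 on chromosome 8.

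The region with the highest median rank among them was the start of Sorcs1, which encodes a sorting receptor of the VPS10 family (chr19:50677872-50679228). Its signal, in the authors' units of unstated scaling, was 1531 and 2315 in C9 and 2734 and 3002 in H9, at percentiles 92.1, 96.7, 97.3 and 97.7 of the 4 lists, where 100 is the strongest peak of a list. Neither parental list had a peak there. Outside the 6 lists, S91K-Y191F replicate 2, both WDR5WT lists and all 4 embryoid body lists did. The Sorcs1 promoter printed above is rich in CG, with an observed to expected CpG ratio of 1.04 against a median of 0.61 over all listed promoters.

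The other regions in the first 5 lay away from starts. They were chr14:113846940-113848448, 1244521 bp from the start of the glypican gene Gpc5, chr13:81814339-81815966, 31905 bp from the centrin gene Cetn3, chr8:97632238-97633800, 1744618 bp from the aminotransferase gene Got2, and chr9:124438961-124440936, 2955 bp from LOC108167320. Their percentiles ran from 91 to 97.7 over the 4 knockout lists. All 4 were also open in S91K-Y191F replicate 2 and in both WDR5WT lists.

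At starts, the next strongest regions belonged to Ptgdr, a prostaglandin D2 receptor, Kcns3, a potassium channel subunit, Bmper, a secreted regulator of BMP signalling, and Hmgxb4, an HMG box protein whose region lies in a dense window of chromosome 8. The Bmper region (chr9:23222206-23223991) stood at percentiles 84.2 and 89.0 in C9 and 93.6 and 95.5 in H9. All 4 starts were open in every embryoid body list.

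At equal list length the strongest p53-knockout-only regions were the starts of Tent5a (chr9:85326071-85328913), Inpp4b (chr8:81341356-81343766), Pard3 (chr8:127063135-127065446), Fat3 (chr9:16499623-16503176) and Cdh16 (chr8:104601275-104603608). Tent5a encodes a poly(A) polymerase, Inpp4b a phosphoinositide phosphatase, Pard3 a polarity protein and Fat3 and Cdh16 are cadherins. Their percentiles within whole knockout lists ran from 90.9 to 99.6. Absence here means only that no parental list had a peak there among its 5330 strongest.

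By number of p53-knockout-only regions assigned to the nearest start within 100 kb, the leading genes were Prl2c3 (8 regions, 6 of them in dense windows), Ccser2 (6, none dense), Cdh5 (6, 5 dense), Hmgxb4 (6, all dense) and Isx (6, 2 dense). Prl2c3 belongs to the prolactin-related proliferin family, Cdh5 encodes VE-cadherin and Isx an intestinal homeobox factor. Cdh5, Hmgxb4 and Isx lie on chromosome 8. At equal list length the leading genes included Hmgxb4 (4 regions), Sgcz (3) and Shcbp1 (3), which are all on chromosome 8.

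Chromosome 8 took a larger share of every list from cells without p53 than of any list from parental cells. Outside dense windows it held 8.81% and 8.88% of C9 peaks, 8.10% and 8.12% of H9 peaks, and 4.68% and 5.57% of parental ESC peaks. The 4 knockout lists lay above both parental lists, at 8.48% ± 0.427 (SD, n = 4) against 5.12% ± 0.631 (SD, n = 2), a difference of 3.35 percentage points. This gave p = 0.0667 by the two-sided exact permutation test, the smallest this design allows, and 0.0889 after adjustment. Chromosome 8 was taken up because earlier results of these data pointed to it. At 5330 peaks per list the difference was 4.31 points, and without either parental list it was 3.80 (replicate 2 left out) and 2.91 (replicate 1 left out).

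Lists outside the comparison showed the same split. All 12 lists of cells without p53 held between 7.19% and 12.6% of their peaks on chromosome 8, and all 4 parental lists, 2 of them from embryoid bodies, held between 4.68% and 5.57%. In embryoid bodies the shares were 4.95% and 5.01% in the parental and 7.19% and 7.21% in the double knockout lists. S91K-Y191F and backbone lists held 7.65% to 12.6%. Whether the double knockout lines descend from C9 or H9 is not given in the sources used here.

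The excess was spread along the chromosome. In each of its 13 windows of 10 Mb the mean share of peaks was higher in the knockout than in the parental lists, by 1.30 to 2.1 times with a median of 1.66, and in 12 of the 13 all 4 knockout lists lay above both parental lists. Of the 272 windows on other chromosomes, 44 (16.2%) had all knockout lists above and 62 had all below, with a median ratio of 0.992. Of whole chromosomes, 4 were higher in all knockout lists (1, 2, 3 and 8), 5 were lower (6, 7, 11, 17 and Y) and 12 overlapped. The ratio of group means was 1.65 for chromosome 8 and 1.12 or less for 1, 2 and 3. For chromosomes 6 and 11 the differences were -0.378 and -0.765 points (p = 0.133 each by the exact permutation test, 0.133 after adjustment). Without parental replicate 1 that for chromosome 11 was -0.473.

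Chromosome 8 held 876 of the 5620 p53-knockout-only regions (15.6%) against 8.97% of all merged regions, and 34.4% of the 128 strong ones. It also held 180 of the 1152 parental-only regions (15.6%) and 15.6% of the 295 strong ones, so whole-list counts do not set the classes apart in this. Dense windows hold most of these 180: of the 790 parental-only regions outside dense windows, 768 lay on other chromosomes, against 4684 of the 5485 p53-knockout-only regions outside them. Among the 1017 genes with a p53-knockout-only start peak, 153 (15%) were on chromosome 8, against 4.77% of all 21887 protein-coding genes. Leaving out chromosomes 6, 8 and 11 left 4277 p53-knockout-only regions. How much of the chromosome 8 share of these regions comes from its share of the lists as a whole was not tested.

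**Figure D3:**
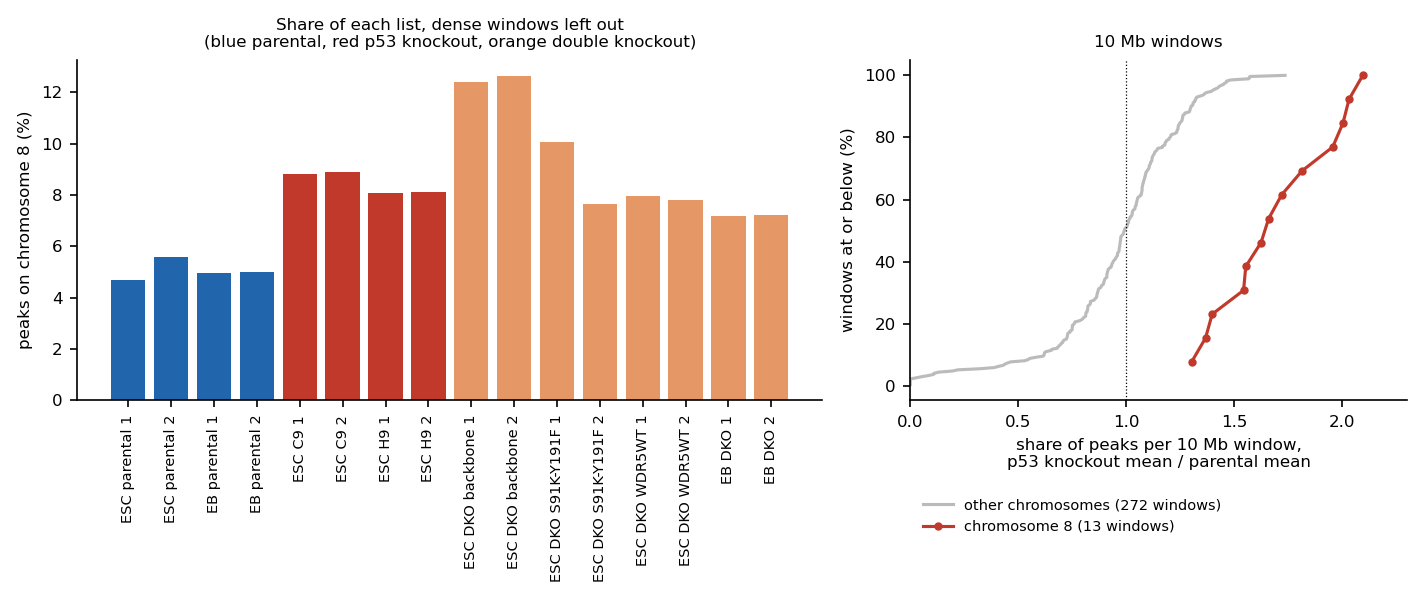
Left, share of each list's peaks on chromosome 8 (y axis, percent, dense windows left out) in all 16 lists (x axis), parental in blue, p53 knockout in red and Wdr5 and p53 double knockout (DKO) in orange; the 4 parental lists sit at 4.68% to 5.57% and the 12 others at 7.19% to 12.6%. Right, cumulative share of 10 Mb windows (y axis, percent) by the ratio of the knockout to the parental mean share of peaks (x axis), for the 13 windows of chromosome 8 in red and the 272 other windows in grey; all 13 lie above 1.30.

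Regions found only in the parental lists were of another kind. Of the 1152, 362 (31.4%) lay in dense windows, against 3.69% of all merged regions and 2.40% of p53-knockout-only ones. Only 7.03% lay at a gene start. Of 1074 regions in the top 25% of both parental lists by signal, 295 (27.5%) were parental-only, 119 of them in dense windows. The genes with most such regions were Gm15319 (36 regions, all dense), Hrh1 (23, 20 dense), Atg7 (22, all dense), Gm21119 (22, all dense) and Gm52481 (21, 20 dense). Hrh1 encodes a histamine receptor and Atg7 an enzyme of autophagy, while the others are predicted genes on chromosomes 8 and Y. At equal list length the same order began with Gm15319 (16), Gm52481 (12) and Hrh1 (11), followed by Gm40363 (10) and Gm40469 (8).

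The strongest parental-only region was chr8:20587628-20597904, in a dense window near Gm21119, at the 100th and 99.8th percentiles. Outside dense windows the first was chr14:124801502-124802308, 609359 bp from Fgf14, at percentiles 99.9 and 99.8, followed by chr7:145340872-145341526, 26364 bp from Mrgprd, at 99.9 and 99.7. These peaks outrank nearly every other peak in both parental lists, and all 4 backbone and S91K-Y191F lists had peaks there too. Neither WDR5WT list had a peak at the Fgf14 or Mrgprd region. At equal list length the strongest was chr9:3009161-3038380, at the 100th percentile of both parental lists and 311461 bp from the nearest start, Alkbh8. It was not parental-only over whole lists, and both WDR5WT lists had a peak there. Absence at equal list length means only that no knockout list had a peak there among the peaks kept.

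At gene starts the strongest parental-only regions lay on chromosome 6 between 47652714 and 47684311, at the predicted genes Gm40363, Gm40365, Gm40367 and Gm40369, all in dense windows, with percentiles of 98.9 to 99.4. Outside dense windows they lay on chromosome 14 at LOC115488283 (chr14:6037062-6040235, percentiles 99.8 and 98.0) and Gm38418 (chr14:7658008-7659753, 99.3 and 95.9).

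Genes with a start peak in both parental lists and no knockout list numbered 69, 0.315% of 21887, and most are members of multicopy families. Of the 69, 48 (69.6%) have a Gm or LOC symbol of a predicted gene, against 6.69% of all genes and 1.77% of the genes with a p53-knockout-only start peak. Of 56 with a listed promoter and no neighbouring start within 600 bp, 46 (82.1%) share at least 50% of their 31-base words with the promoter of another gene. The same holds for 1 of 747 p53-knockout-only genes (0.134%), 8 of 1689 genes open in all 6 lists (0.474%) and 1043 of all 15904 (6.56%). All 31-base words of the Gm13272 promoter printed above recur in other promoters. Gm13272's signal was 1022 in parental replicate 1 (percentile 82.3) and 626 in replicate 2 (81.3), and no knockout list had a peak.

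Gm13272 lies with Gm13276, Gm13285, Gm13287, Gm13289 and Gm13290 in the type I interferon cluster of chromosome 4, and all 6 genes had a parental-only start peak. The rest of the 69 include histone genes of 2 clusters (H2ac18, H2ac19, H3c14 and H3c15 on chromosome 3, H2ac24, H4c17 and H4c18 on chromosome 13) and a run of predicted genes near the start of chromosome 14. Reads from such copies cannot be placed at 1 locus, and how multiply placed reads were handled is not given in the sources used here. Restricting the count to genes with a listed promoter and no near-identical copy, a setting chosen after seeing the data, left 11 parental-only genes and 772 p53-knockout-only ones.

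Lists that did not define the regions held parental-only regions in some cells without p53 and not in others. Parental-only regions had a peak in 50.6% and 53.9% of cases in the backbone lists and in 63.7% and 89.8% in the S91K-Y191F lists, although these cells lack p53. Over all merged regions the shares were 2.88% and 4.88%, and 10.2% and 32.1%. In WDR5WT lists, also without p53, parental-only regions had a peak in 1.56% and 1.82% of cases, against 56.5% and 60.5% of all regions. At least 1 backbone or S91K-Y191F list held 1088 of the 1152 parental-only regions (94.4%), and 60 were in no double knockout ESC list. In embryoid bodies 35 of the 1152 (3.04%) had a peak in any list, parental embryoid bodies included. Of the parental-only regions, 2 were in both parental and neither double knockout embryoid body list.

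The p53-knockout-only regions showed the converse in WDR5WT lists, with a peak in 78.2% and 81.6% of cases against 56.5% and 60.5% of all regions. In backbone lists, which hold 1535 and 2492 peaks, the share was under 0.1% in both, with 4 and 5 regions. S91K-Y191F replicate 1, with 5174 peaks, held 58 (1.03%) and replicate 2, with 16257 peaks, held 1066 (19%). Among the 128 strong p53-knockout-only regions, however, 92 (71.9%) had a peak in S91K-Y191F replicate 2, a list of cells without p53. That share was 67.9% of 84 regions outside dense windows and chromosome 8. For comparison, 92.0% of all 5333 regions strong in every knockout list had a peak there. The 128 were chosen as absent from both parental lists, so no parental share can be set against these values.

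In embryoid bodies, p53-knockout-only regions had a peak in 64.9% and 59.1% of cases in the parental lists and in 69.6% and 77.0% in the double knockout lists. The 2 double knockout lists thus lay above the 2 parental ones, at 73.3% ± 5.23 against 62.0% ± 4.13 (SD, n = 2 each), with p = 0.333 in the two-sided exact permutation test, the smallest that 2 against 2 allows, and 0.667 after adjustment over both classes of region. Over all merged regions the shares were 58.8% and 54.9% in parental and 59.9% and 66.3% in double knockout lists. Regions in both double knockout and neither parental embryoid body list numbered 322 of 5620 (5.73%), against 3.80% of all merged regions, and 78 of them were on chromosome 8. The reverse pattern held for 33 (0.587%), against 0.753% of all. More than these, 2949 p53-knockout-only regions (52.5%) were in all 4 embryoid body lists.

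**Figure D4:**
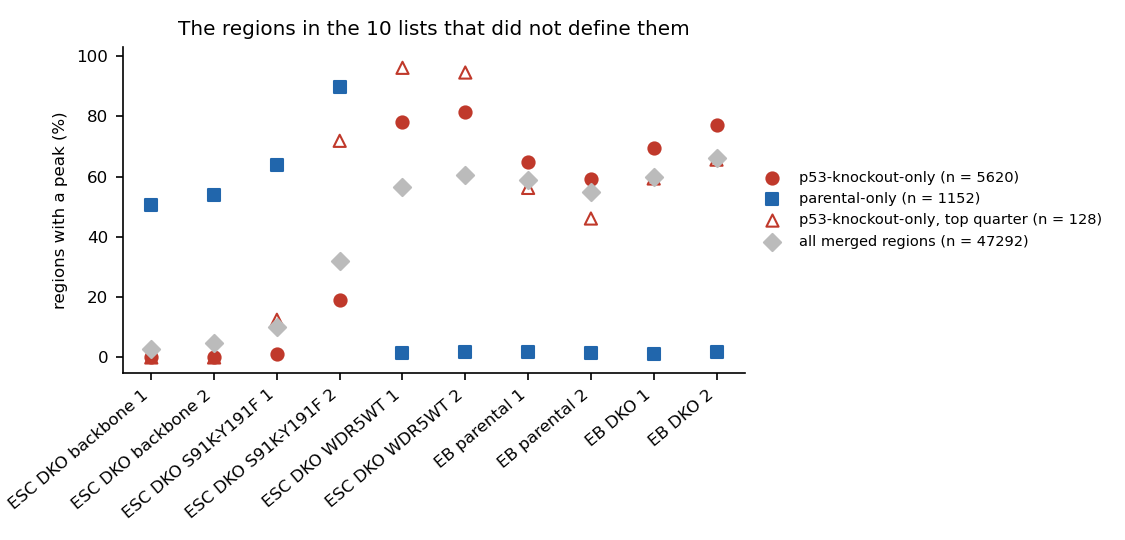
Share of regions with a peak (y axis, percent) in each of the 10 lists that took no part in choosing them (x axis), for p53-knockout-only regions (red circles), the 128 of them in the top 25% of every knockout list (open red triangles), parental-only regions (blue squares) and all merged regions (grey diamonds). Blue squares stand high in backbone and S91K-Y191F lists (50.6% to 89.8%) and at 1.13% to 1.91% in WDR5WT and embryoid body lists.

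A start peak in all 4 knockout lists and no parental list was found for 1017 genes, 4.65% of 21887. A start peak in all 6 lists was found for 2629 genes (12%) and in none of them for 9637. At equal list length the counts were 531 p53-knockout-only genes (2.43%), 168 parental-only (0.768%) and 1690 in all 6 (7.72%). With parental replicate 2 left out at 24367 peaks they were 735 (3.36%), 500 (2.28%) and 7264 (33.2%). Without parental replicate 1 the whole-list count of p53-knockout-only genes was 6076, and without replicate 2 that of parental-only genes was 324. Promoters of p53-knockout-only genes were of an intermediate CpG content. The median observed to expected CpG ratio was 0.757, against 0.824 for genes open in all 6 lists, 0.215 for genes open in none and 0.61 for all 17492 genes with a listed promoter.

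Trp53 itself is no test of the knockout here, since an open start says nothing about a deletion inside the gene. Its start region (chr11:69579046-69579632), which it shares with the neighbouring Wrap53, had a peak in parental replicate 1 (percentile 50.3) and in both H9 lists (38.5 and 22.8), and none in either C9 list or in parental replicate 2. Inside the gene, chr11:69581133-69581663 had a peak in parental replicate 1 (percentile 24.4) and in none of the other 5 lists. Wdr5, whose product is a scaffold of the COMPASS histone methyltransferases, had no start peak in any of the 6 lists. Rax had one in all 4 knockout lists (percentiles 52.5, 73.7, 80.9 and 76.1) and in parental replicate 1 (65.6).

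Of 60 p53 targets, 38 (63.3%) had a start peak in all 4 knockout lists, against 8707 of all 21887 genes (39.8%), and 36 of the 38 also had one in parental replicate 1, against 7688 of the 8707. Of the 60, 16 were open in all 6 lists, 2 (Phlda3 and Dram1, 3.33% against 4.65% of all genes) were p53-knockout-only, none was parental-only (against 0.315%), and 7 had no start peak in any list. A parental-only call needs a peak in the short parental replicate 2. With that list left out and 24367 peaks per list, 2 targets were p53-knockout-only (3.33%, against 3.36% of all genes). In that setting 3 were in parental replicate 1 and no knockout list (5%, against 2.28%). The lists of targets were drawn up with earlier results of these data known.

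Among the genes of feedback and arrest, 12 of 19 had a start peak in every knockout list. Ccng1, encoding cyclin G1, was at percentiles 95.6, 95, 95.9 and 95.9 in the knockout lists and 96.3 and 83.0 in the parental ones. Gadd45a, a growth arrest gene induced by DNA damage, was at 99, 99.2, 99.2 and 99.1, and at 97.0 and 52.6. Plk2, a polo-like kinase gene, and Ccnk, encoding cyclin K, were also open in all 6. These starts stood among the strongest peaks of the knockout lists. Mdm2, the ubiquitin ligase gene that limits p53, had a start peak in 3 knockout lists (50.7 in C9 replicate 2, 53 and 42.2 in H9) and in parental replicate 1 (42.0). Gadd45g and Sfn had none in any list.

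Cdkn1a, encoding the cell cycle inhibitor p21, had a start peak in parental replicate 1 (percentile 15) and in C9 replicate 1 (47.1) alone of the 6. That peak lies over the downstream start. No list of the 16 had a peak over the upstream window printed above, which holds the full p53 site by its letters. Its half-sites begin 73 and 51 bases before the upstream start. Cop1, a second ubiquitin ligase gene of the p53 pathway, was open in all 4 knockout lists (89.2, 95.2, 92.3 and 93.6) and in parental replicate 1 (63.6), and counts as p53-knockout-only at equal list length.

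Among apoptosis targets, 10 of 19 had a start peak in every knockout list. Apaf1, the scaffold of the apoptosome, was at 94.4 to 96.8 in the knockout lists and 92.2 and 69.7 in the parental ones. Phlda3, a p53-induced inhibitor of Akt, had peaks at percentiles 22.8 and 52.4 in C9 and 31.7 and 61.7 in H9, with signals of 278, 476, 337 and 644. Dram1, a p53-induced lysosomal gene of autophagy, had peaks at 19.6, 58.7, 55.1 and 31.5, with signals of 265, 546, 542 and 338. No parental list had a peak at either. These are low to middling peaks, the smallest signal in any ESC list being 200, and both starts were open in both WDR5WT lists and in all 4 embryoid body lists, parental ones included.

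Bax, whose product permeabilises mitochondria in apoptosis, showed the reverse in 1 library. It had a start peak in parental replicate 1 (chr7:45466271-45467012, signal 476, percentile 50.4) and in none of the 4 knockout lists nor in parental replicate 2. Outside the 6 lists it had a peak in WDR5WT replicate 2, a list of cells without p53, and in all 4 embryoid body lists. Over whole lists, Bax alone of the 60 targets was open in parental replicate 1 and in no knockout list, as were 324 of all 21887 genes. Pidd1 and Bbc3 (PUMA) had a start peak in parental replicate 1 and in 1 H9 list each.

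Repair, redox and metabolism targets were the most uniformly open, with 16 of 22 in all knockout lists and in parental replicate 1, and 10 of 22 in all 6 lists. Pcna, the polymerase clamp, was at 94.2, 96.2, 96.1 and 93.7 in the knockout lists and 95.2 and 77.6 in the parental ones. Rrm2b, a subunit of the p53-inducible ribonucleotide reductase, and the damage recognition genes Xpc and Ddb2 were open in all 6 too. Of 16 genes of the p53 family and its upstream regulators, 4 were open in all 6 lists (Atm, Chek1, Prkdc and Kat5, a set of damage kinases and an acetyltransferase). Of the 16, 1 was p53-knockout-only (6.25%, against 4.65% of all genes). It was Ep300, an acetyltransferase that acts as a p53 coactivator, at percentiles 27.4, 22.3, 62.1 and 76.4.

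**Figure D5:**
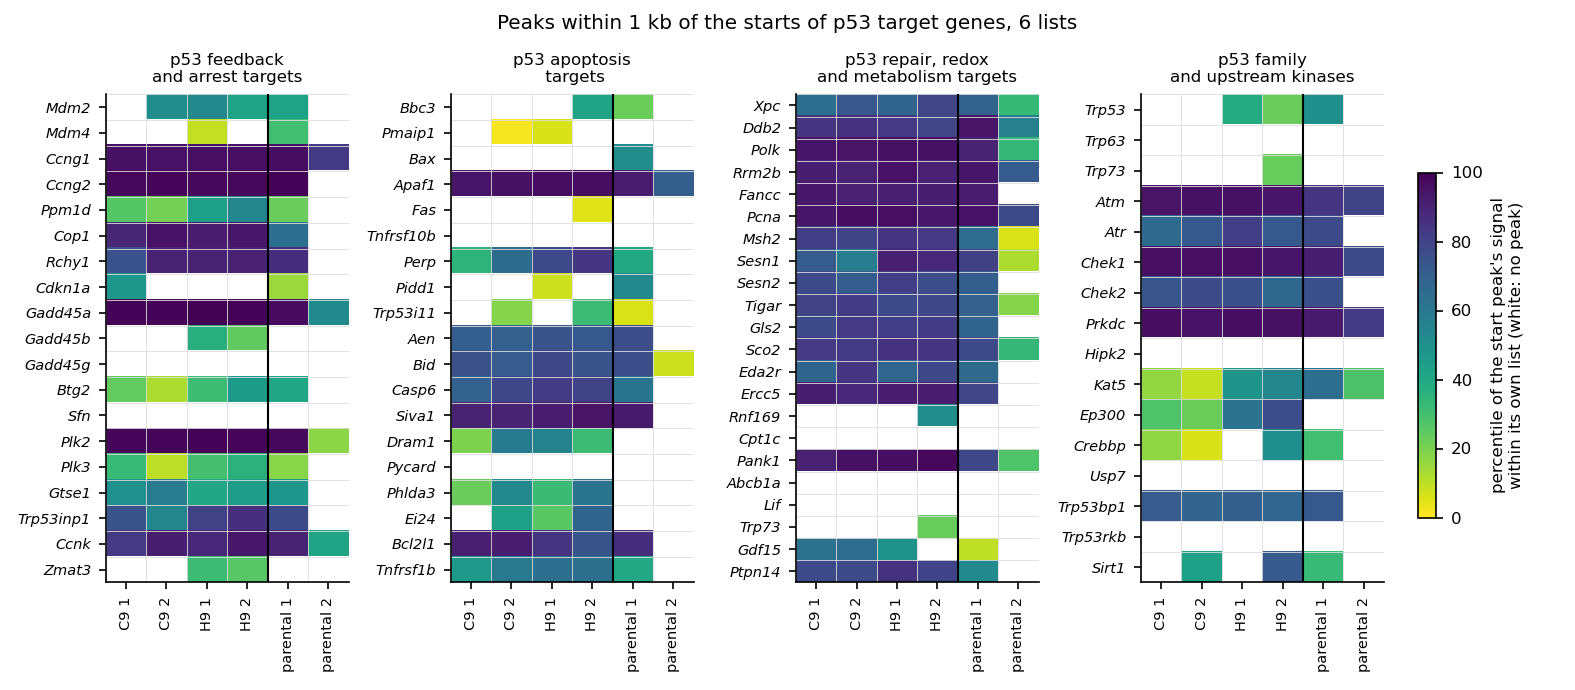
Start peaks (within 1 kb) of the p53 target genes and of the p53 family and its regulators (rows, 4 panels by role) in the 6 lists (columns); colour gives the percentile of the peak's signal within its own list, 100 being the strongest, and white means no peak. Most rows match between the 4 knockout lists and parental replicate 1, while parental replicate 2 is white in most; Phlda3, Dram1 and Ep300 are filled in the 4 knockout columns only.

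Starts included, 123 merged regions had a p53 target as the nearest gene within 100 kb. Of these 7 (at Phlda3, Dram1, Cop1, Zmat3, Gadd45a, Lif and the p53 relative Trp73) were p53-knockout-only and 1 was parental-only, where all 33593 regions with a gene within 100 kb hold 3533 and 771. Both shares are below those over all genes, and the difference was not tested. The parental-only region, chr11:40844526-40845536, lies 89745 bp from the start of Ccng1, stood at percentiles 84.7 and 40.9 of the parental lists, and was held by both S91K-Y191F lists. The Lif region (chr11:4270881-4271811), inside the gene of the cytokine that supports ESC self-renewal, had percentiles of 41.5, 10.4, 47.3 and 27.2. It was also in 1 WDR5WT list, both parental and 1 double knockout embryoid body list.

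The p53 half-site has 10 bases, and its consensus, though not each match, reads the same on both strands. It occurred in 7.92% of the promoters of p53-knockout-only genes, 8.20% of those of parental-only genes (5 of 61), 8.39% of those open in all 6 lists and 8.54% of all 17492. Among the 50 p53 targets with a listed promoter it occurred in 14 (28%), among them Bax, where it begins 201 bases before the start. The promoters printed for Phlda3 and Dram1 hold none. The Phlda3 window ends on letters that also begin the half-site nearer the Cdkn1a start, so a match across its edge could not be seen. A full site, a pair of half-sites with at most 13 bases between, was found in 10 promoters of all and in Cdkn1a alone of the targets. These are matches of letters in a window of 300 bases and show no binding.

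Start peaks were also read at 30 genes of naive and core pluripotency. Of these, 20 had one in every knockout list and in parental replicate 1, against 7688 of all 21887 genes. All 6 lists held 7 of the 20 (Nanog, Klf2, Klf5 and Zfp42 among them), against 12% of all genes. Of 28 cell cycle regulators, 23 had the first pattern, so these counts do not tell the cells' identity. Pou5f1, which encodes the core factor OCT4, had a start peak in parental replicate 1 (percentile 56.6) and C9 replicate 1 (31) alone. Dppa4 and Prdm14 had one in parental replicate 1 and in no knockout list. Esrrb, Lin28a, Dppa3 and Tcl1 had none in any of the 6. Of the 30, none was p53-knockout-only or parental-only over whole lists. At equal list length Nr0b1, a naive factor, was p53-knockout-only, and Nanog and Stat3, the effector of LIF, were parental-only. This does not make Nanog and Stat3 closed in the knockout lists, since all 6 whole lists hold both starts. Nor does it rank them lower there than in parental replicate 2, whose peaks are all kept at equal list length. Nanog stood at percentiles 54.4 to 70.3 in the whole knockout lists, and at 79.5 and 29.1 in the parental lists. Stat3 stood at 66.4 to 75.5 in the knockout lists, and at 80.6 and 7.35 in the parental lists.

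Lineage genes are given beside all genes, of which 4.65% are p53-knockout-only and 0.315% parental-only. Their counts, at most 2 per list, do not set them apart from those shares. Of 21 formative and primed genes, 1 was p53-knockout-only (Sox4, at percentiles 37.6, 48.4, 71.9 and 65.6). Of 23 neuroectoderm and eye field genes, 2 were, Hes5, an effector of Notch, and Meis2, a homeobox factor. Of 14 trophectoderm genes, 1 was, Tfap2a. Of 20 genes of primitive streak and mesoderm and 17 of endoderm, none was. No list of lineage genes had a parental-only start peak over whole lists, a call that needs a peak in the short parental replicate 2. A start peak in parental replicate 1 and no knockout list was found for 2 of the 20 primitive streak and mesoderm genes. The same held for 1 of the 23 neuroectoderm genes, against 1.48% of all genes, and for no gene of the other 3 lists. Lhx2, of the eye field, was p53-knockout-only at equal list length, with 83.4 to 92.7 in the whole knockout lists and 59.7 in parental replicate 1.

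Markers of fibroblasts, which serve as feeders in some ESC cultures, mostly had no start peak. Of 15, 9 (60%) had no start peak in any list (Thy1, Fap, Dcn and Postn among them), against 44.0% of all genes. Vim and Fn1, also expressed in ESCs, were open in all 6. The list had 2 p53-knockout-only genes (13.3%, against 4.65% of all genes). They were Prrx1, a mesenchymal homeobox factor (chr1, percentiles 77.7, 87.7, 85.4 and 79.8), and the collagen gene Col1a2 (9.6, 50.2, 56.6 and 56.7). Of 12 markers of 2-cell-like cells, 9 (75%) had no start peak in any list, against the same 44.0%. Arg2 was p53-knockout-only, and Duxf3, a copy of the Dux array that drives the 2-cell programme, had peaks at percentiles 99.8 and 99.3 in the parental lists and at 69.1 in C9 replicate 2. Duxf3 lies in a dense window of near-identical copies, and its reads are subject to the limit on copies stated above.

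Of 19 genes of COMPASS and WDR5 partners, 1 was p53-knockout-only (5.26%, near the 4.65% of all genes). It was Kmt2c, a histone methyltransferase of the family (49.8, 27.6, 74.7 and 79.7). At equal list length 1 of the 19 was (5.26%, against 2.43% of all genes), Kdm6a, a demethylase found with it. Of 28 cell cycle regulators, 23 had a start peak in all knockout lists and in parental replicate 1, against 7688 of all 21887 genes. None was specific to a group over whole lists. Rbl2, of the retinoblastoma family and on chromosome 8, was p53-knockout-only at equal list length. Of 20 ubiquitously expressed genes, 11 were open in all knockout lists and in parental replicate 1, and Ppia was parental-only at equal list length.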

How the data were processed

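ATAC-seq peak lists of mouse ESCs and embryoid bodies were analysed as deposited, in build mm10. The submitters' processing notes name 2 peak callers, Genrich 0.6 and MACS2 2.1.2, the aligner Bowtie2 2.3.5, SAMtools, and DESeq2, and do not tie them to files. Each deposited ESC list gives a score, a signal of unstated scaling and a −log10 p per peak. Those deposited for embryoid bodies hold, beside a score, the fold enrichment as a ratio and both −log10 p and −log10 q. Signals ranked peaks within a list only, since depth is unknown.

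Regions were merged, called and assigned to the nearest start within 100 kb with Python 3.11.15, numpy 2.4.6 and pandas 2.3.3, and the code was tested on simulated lists. Starts are those of RefSeq promoters for 17492 genes and either end of 4395 others. Exact permutation tests compared list values. The members, the 15 gene lists (293 of 294 genes matched), the tests and the naming rule were chosen with earlier results of these data known.

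The genes named are Trp53, Wdr5 and Rax, p53 targets specific to a group, otherwise up to 5 per pattern in list order, up to 3 specific genes per other list, and per direction the 5 genes with most specific regions and the 5 strongest regions. Some genes that this rule names are not reported here. Bax, Cdkn1a, Mdm2, Pidd1, Bbc3, the repair and kinase examples, Pou5f1, the other pluripotency and marker genes with no group pattern, and starts among strong regions were named after their values were seen. Alternatives were equal list length, the upper 50% by p, 50% overlap, 500 bp summit windows, left-out lists, chromosomes and dense windows, 3 of 4 knockout lists, single clones, start windows of 500 and 2500 bp, and a replicate block.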

Additional observations from a re-analysis of the deposited data

Results flagged for a closer look

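The peak number of clone C9 replicate 1 stood apart from the other 3 knockout lists, at 26305 peaks, 4.42 on the log10 scale. Its gap to the nearest list was 0.831 of the range of the 4, just over the critical value for 4 samples. Chance flags about 1 group in 20. Without this list, 7338 regions were p53-knockout-only, against 5620 with it, and 1162 were parental-only, against 1152.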

How the results depend on the processing

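Counts followed list length and the parental lists more than the way regions were matched. p53-knockout-only regions numbered 918 at equal list length, 3020 with the upper 50% by p, 9441 in 3 of 4 knockout lists and 9457 for clone H9 alone, and 5631 to 16220 with each list left out in turn. Parental-only regions numbered 6481 at equal length without parental replicate 2, 597 with the upper 50% by p, and 1162 to 5483 with a list left out. Genes with a start peak numbered 531 (knockout-only) and 168 (parental-only) at equal length, and 1019 to 6076 and 70 to 324 with a list left out; 11 parental-only genes had no near-identical copy. Of 8 measures per list, 1 changed direction, the share at gene starts (16.3 points at equal length), and none passed 0.05 in any setting. All other settings of these counts stayed within 1.5 times.

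Replicate numbers did not pair the lists: deviations of same-numbered lists correlated at 0.0134, 0.126 and 0.0182. With replicate number as a block, the difference in log10 peak number was still 0.42 and its exact permutation p was 0.111, the smallest that block allows. Depth is unknown, so a missing peak does not show closed chromatin.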
